A study of Mus musculus with 12 samples.

Results

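The extracellular matrix genes followed here encode the laminin chains, the proteins that join laminin to the rest of the basement membrane, the components of elastic fibres and microfibrils, the lysyl oxidases that crosslink them, the small leucine-rich proteoglycans, the matricellular proteins and vitronectin. They were chosen by gene symbol, with earlier results of these data known. The rule itself used no measured value beyond a total of at least 20 counts over the 12 libraries. All 47 genes whose symbols matched had that total, of 49315 genes in the table. Each gene was measured as a read count in the brain RNA of 12 mice killed 14 d after stroke, of which 6 carried WT BM and 6 carried *Tet2*-KO BM. The recipients were male CD45.1 Pep Boy mice, 8 to 12 weeks old at transplantation and irradiated with the head shielded. In the *Tet2*-KO group 10% of the marrow came from CD45.2 *Tet2*-/- donors, in the WT group 10% came from CD45.2 *Tet2*+/+ donors, and in both groups the other 90% came from CD45.1 *Tet2*+/+ donors. All mice then had the right middle cerebral artery occluded for 30 min, 8 to 10 weeks after transplantation, and there was no sham group among these libraries. The brain cells of the recipients kept an intact *Tet2* in both groups, so that only a share of the blood-borne cells differed in genotype. The paper calls the tissue whole brains in its results and whole brain hemispheres in its discussion.

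Total counts lay between 12000261 and 15340787 in WT mice and between 12625047 and 21049763 in *Tet2*-KO mice. *Tet2* itself lay between 126 and 147 CPM (counts scaled to library size by the TMM method) in WT brains and between 117 and 137 CPM in *Tet2*-KO brains, and the ranges overlapped, so that it gives no check of the labels. The *Tet2*-KO labels name control stem cells as the treatment but carry *Tet2*-KO in title and genotype, and the titles were followed. Markers of neurons, which define brain tissue, summed to between 3609 and 5219 CPM in WT mice and between 4725 and 6322 CPM in *Tet2*-KO mice. WT replicate 2 and *Tet2*-KO replicate 5 were often the highest mouse of their group in the matrix genes, and the counts of calls and the medians of the roles and lists are also given without each of them.

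Basement membranes are thin sheets around brain vessels and under the astrocyte endfeet of the brain surface, in which laminin trimers of an alpha, a beta and a gamma chain form a network that nidogens and perlecan tie to type IV collagen. Fibrillin microfibrils and elastin give elasticity, and fibulins and EMILINs help to assemble them. Lysyl oxidases crosslink elastin and collagen, and small leucine-rich proteoglycans bind collagen fibrils and growth factors. In healthy brain most fibrous matrix lies in the meninges and along vessels, and after stroke fibroblasts and other cells lay down matrix in and around the lesion.

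Promoter sequence was available for 28 of the 47 genes in RefSeq windows on GRCm38.p6 (37 windows, since 8 genes had several). A set of 3 short motifs was searched on both strands in the 250 bases before each start. TGANTCA, the site read by AP-1 factors, was in 1 of the 37 windows and in 6.75% of all 32851 windows. CAGACA, a SMAD-type element, was in 11 of the 37 windows, or 29.7%, and in 17.1% of all windows. TATAAA, the TATA box, was in 4 of the 37 windows, or 10.8%, and in 12.4% of all windows. The 250 bases of the matrix genes had a median of 59.2% G and C, against 52.4% over all windows. A match describes letters only, and no binding was measured. The 5 sequences printed here show each motif once, in *Efemp1*, *Fbln1* and *Postn*, and stand beside *Bgn*, with no motif, and *Agrn*, with no motif and a level that hardly differed between the groups. Each runs 5′ to 3′ on the strand of the gene over 240 bases that end 10 bases before the start, holds no annotated exon, and has the motif in capitals.
*Efemp1* (chr11:28852955-28853194, plus strand): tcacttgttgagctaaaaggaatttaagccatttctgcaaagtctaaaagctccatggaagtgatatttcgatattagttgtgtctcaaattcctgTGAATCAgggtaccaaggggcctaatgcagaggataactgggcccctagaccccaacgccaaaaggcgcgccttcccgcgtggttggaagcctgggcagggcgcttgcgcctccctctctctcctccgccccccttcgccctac
*Fbln1* (chr15:85205699-85205938, plus strand): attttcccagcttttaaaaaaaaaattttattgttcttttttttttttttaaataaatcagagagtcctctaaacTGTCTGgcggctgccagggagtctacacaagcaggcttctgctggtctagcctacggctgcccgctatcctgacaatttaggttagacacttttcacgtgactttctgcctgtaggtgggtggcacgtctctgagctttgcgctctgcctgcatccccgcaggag
*Postn* (chr3:54360857-54361096, plus strand): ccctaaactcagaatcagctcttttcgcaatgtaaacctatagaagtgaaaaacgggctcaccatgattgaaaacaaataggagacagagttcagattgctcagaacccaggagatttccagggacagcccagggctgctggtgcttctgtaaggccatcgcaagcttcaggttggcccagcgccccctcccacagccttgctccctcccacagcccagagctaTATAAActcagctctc
*Bgn* (chrX:73483351-73483590, plus strand): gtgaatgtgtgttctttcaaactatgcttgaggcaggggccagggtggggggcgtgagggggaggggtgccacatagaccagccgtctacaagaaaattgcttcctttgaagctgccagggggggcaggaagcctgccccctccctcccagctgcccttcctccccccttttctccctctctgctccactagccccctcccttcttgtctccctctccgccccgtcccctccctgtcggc
*Agrn* (chr4:156197499-156197738, minus strand): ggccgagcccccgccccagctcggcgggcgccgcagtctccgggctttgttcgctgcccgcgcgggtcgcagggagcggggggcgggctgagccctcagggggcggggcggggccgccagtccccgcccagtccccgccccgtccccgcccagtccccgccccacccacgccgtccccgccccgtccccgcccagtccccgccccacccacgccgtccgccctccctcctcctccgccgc
The capitals mark TGANTCA in *Efemp1*, whose first base lies 154 bases before the start, CAGACA in *Fbln1*, 175 bases before it, and TATAAA in *Postn*, 26 bases before it. In *Fbln1* the capitals read TGTCTG, since CAGACA lies on the opposite strand there. Over all 28 genes, the motifs were found in members that were lower in *Tet2*-KO brains and in members that did not pass the test. Of the 16 genes with a window that were lower at an unadjusted p below 0.05 (12.2% of all genes tested were), 5 held CAGACA, 3 held TATAAA and 1 held TGANTCA.

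To ask how the matrix genes differed between the groups, each was compared in the *Tet2*-KO brains with the WT brains by the quasi-likelihood F test of edgeR. Most of these genes were measured at lower levels in *Tet2*-KO brains, with the largest single difference in thrombospondin-1 and the lowest medians of a role in the small leucine-rich proteoglycans and the crosslinking enzymes. The 45 members that passed the filter on low counts had a median log2 fold change of -0.52, against 0.010 over all 20290 genes tested, and 43 of the 45 lay below zero, against 47.7% of all genes. No member passed an adjusted p of 0.05, which 0.0246% of all genes did. At an unadjusted p below 0.05, 28 members were lower in *Tet2*-KO brains (12.2% of all genes tested were) and 1 was higher (10.8% of all genes were). Genes described as not passing the test had an unadjusted p of 0.05 or more. The Wald test of DESeq2 called 12 members at an adjusted p below 0.05, 11 of them lower, where it called 4.25% of all genes (3.32% lower). In limma-voom with quality weights 26 were called, 25 of them lower, against 9.18% of all genes (6.38% lower). The 11 lower members called by DESeq2 were *Lamb1*, *Nid2*, *Efemp1*, *Emilin1*, *Emilin2*, *Fbln1*, *Fbln7*, *Fbn1*, *Fbn2*, *Dcn* and *Thbs1*. In bulk tissue, fewer cells of a type and less RNA per cell cannot be told apart.

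**Figure D1:**
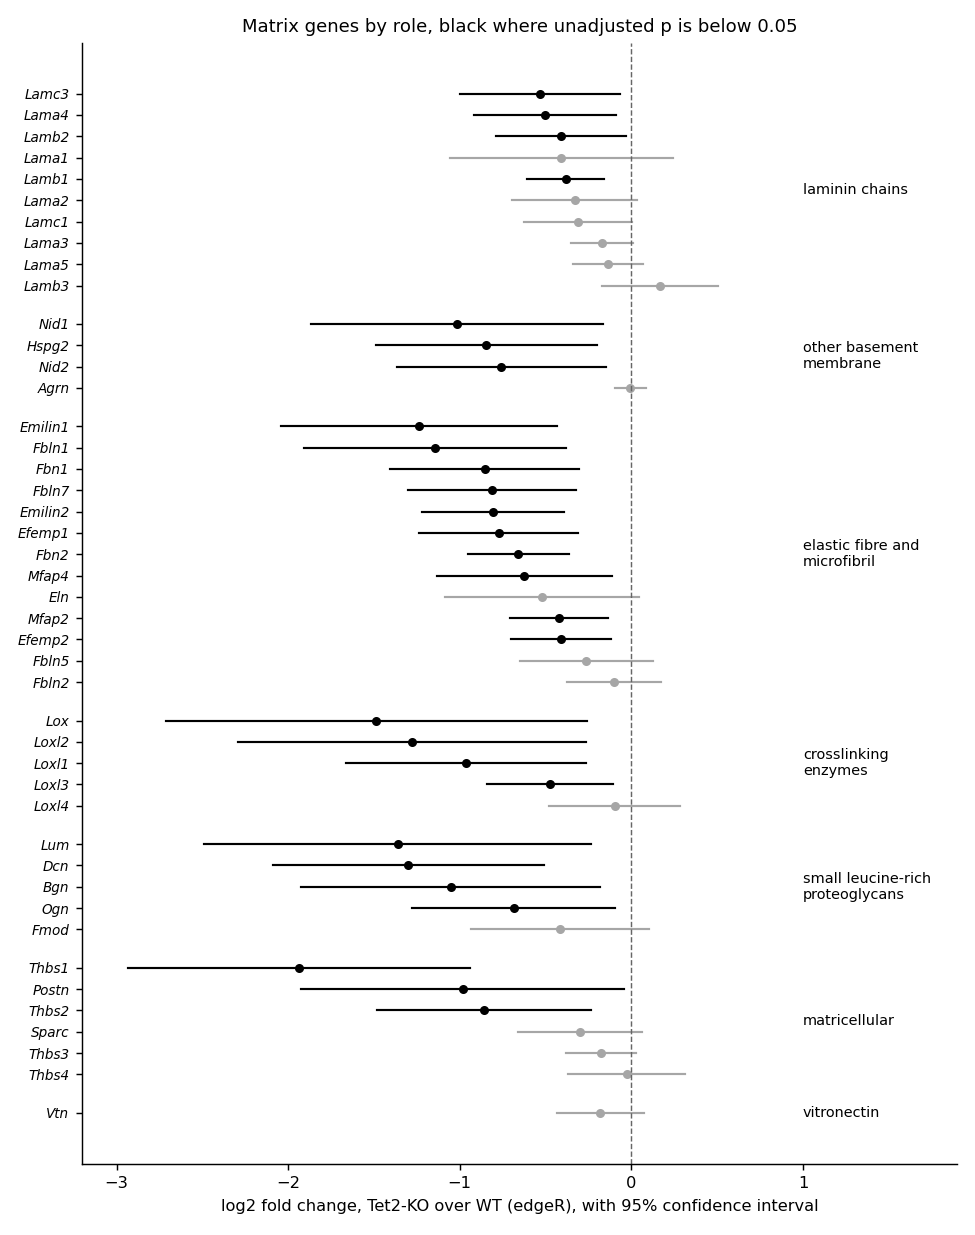
Log2 fold change of *Tet2*-KO over WT brains (x axis) for 44 tested members in 7 roles (y axis), with 95% confidence intervals from edgeR (n = 6 per group) and in black where the unadjusted p is below 0.05. The intervals of 28 members lie below zero, and *Thbs1* has the largest difference, -1.94.

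*Tet2*-KO replicate 5 and WT replicate 2 bore on these counts. Without *Tet2*-KO replicate 5, edgeR called 27 members at an adjusted p below 0.05, 26 lower and 1 higher, where it called 11% of all genes (7.3% lower), and 34 were lower at an unadjusted p below 0.05, where 14.6% of all genes were. Without WT replicate 2 no member passed the adjusted threshold, which 0.0195% of all genes did, and 18 members were lower at an unadjusted p below 0.05, where 7.92% of all genes were. Among all 45 tested members, 38, 34, 39, 18, 2 and 39 were below every WT mouse in *Tet2*-KO replicates 1 to 6, respectively. The share over all genes was not computed for single mice. Of the 28 lower members, all 28 were below every WT mouse in *Tet2*-KO replicates 1, 3 and 6, 27 were in replicate 2, 16 in replicate 4 and 1 in replicate 5. These 28 were picked as lower in the same libraries, so their counts follow in part from that choice. Replicate 5 was the highest *Tet2*-KO mouse for 23 of the 28, and replicate 1 the lowest for 24. WT replicate 2 was the highest WT mouse for 25 of the 28. *Emilin2* was the only member in which every *Tet2*-KO mouse lay below every WT mouse (0.641% of all genes tested), and none lay above in every mouse (0.453% of all genes). Without *Tet2*-KO replicate 5, 16 members had all other *Tet2*-KO mice below every WT mouse, which 4.78% of all genes had.

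The medians kept their sign without either mouse. Over all tested members the median log2 fold change of -0.52 became -0.71 when *Tet2*-KO replicate 5 was left out and -0.41 when WT replicate 2 was. For laminin chains it was -0.44 and -0.24, for the other basement membrane components -0.96 and -0.60, and for elastic fibre and microfibril components -0.79 and -0.63. For crosslinking enzymes it was -1.28 and -0.83, for small leucine-rich proteoglycans -1.43 and -0.84, and for matricellular proteins -0.68 and -0.43. Lower members moved as well, such as *Dcn* from -1.30 to -1.09 without WT replicate 2 and *Lox* from -1.49 to -2.16 without *Tet2*-KO replicate 5. Several members that did not pass the test also moved. Without WT replicate 2 the log2 fold change was -0.055 for *Lama5*, 0.085 for *Lamb3*, -0.020 for *Fbln2*, -0.12 for *Fbln5*, -0.0019 for *Loxl4*, -0.093 for *Vtn* and, with the sign turned, 0.065 for *Thbs4*. Without *Tet2*-KO replicate 5 it was -0.62 for *Lama1* and -0.79 for *Eln*.

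**Figure D2:**
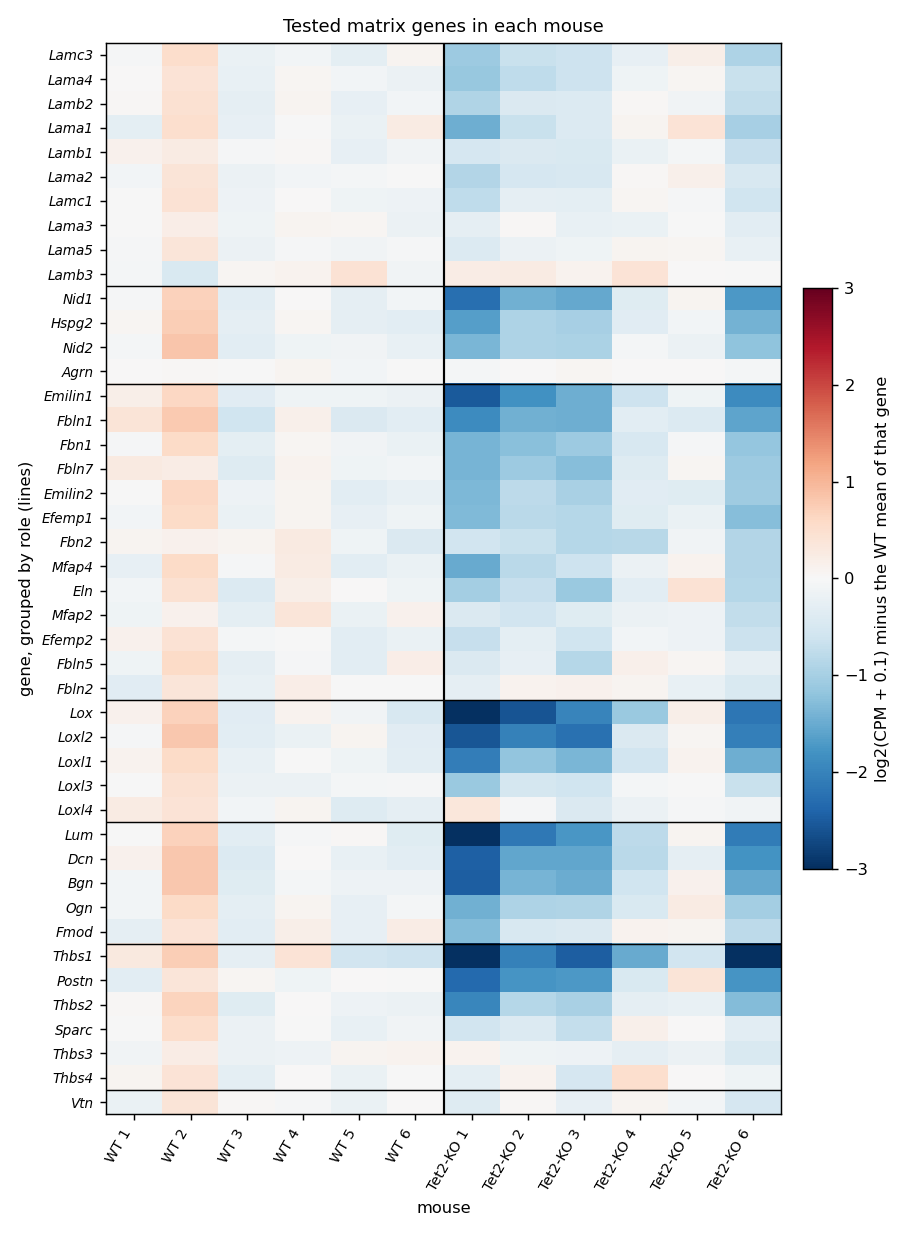
Each row is 1 of 44 tested members and each column a mouse, and the colour gives log2(CPM + 0.1) minus the WT mean of that gene (blue lower, red higher). *Tet2*-KO replicates 1, 2, 3 and 6 are blue over most rows outside *Agrn* and *Lamb3*, replicate 4 is paler, and replicate 5 resembles the WT mice, among which replicate 2 is the reddest.

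The 11 laminin chains had the smallest median difference of the roles with several genes. Of these chains, 4 were lower at an unadjusted p below 0.05 (12.2% of all genes tested were). The median log2 fold change of the 11 chains was -0.33. *Lamb1*, the beta-1 chain shared by embryonic and vascular laminins, had 38.9, 46.3 and 55 CPM in WT mice (lowest, median and highest) and 28.6, 34 and 45 CPM in *Tet2*-KO mice. The ranges overlapped through *Tet2*-KO replicates 4 and 5. Its means were 46.7 ± 5.63 CPM in WT and 35.8 ± 5.91 CPM in *Tet2*-KO mice (SD, n = 6 per group, as for all means here), and its log2 fold change was -0.38 ± 0.10 (SE, adjusted p = 0.115). *Lama4*, an alpha chain of endothelial laminin, had 30.3, 34.3 and 46.8 CPM in WT mice and 15.9, 22.4 and 36.8 CPM in *Tet2*-KO mice. The same 2 *Tet2*-KO mice reached the WT range. Its means were 35.5 ± 6.05 CPM in WT and 25.1 ± 7.82 CPM in *Tet2*-KO mice, a log2 fold change of -0.51 ± 0.19 (adjusted p = 0.158). *Lamc3*, a gamma chain, was lower by a log2 fold change of -0.53 ± 0.21, and *Lamb2*, the beta chain of mature vessels and synapses, by -0.41 ± 0.17.

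*Lamc1*, the gamma chain of most vascular laminins (chr1:153218922-153332786), had the highest level per length of the chains, 11.1 CPM per kb of exon over all mice. It had 90.2, 96.5 and 136 CPM in WT mice and 59.3, 82.4 and 104 CPM in *Tet2*-KO mice, and replicates 4 and 5 of the latter lay in the WT range. The means were 102 ± 17.3 CPM in WT and 82 ± 17.3 CPM in *Tet2*-KO mice, and the log2 fold change of -0.31 ± 0.15 did not pass the test (unadjusted p = 0.0536). *Lama3* and *Lamb3*, chains of epithelial laminin, had log2 fold changes of -0.17 ± 0.085 and 0.17 ± 0.16 and did not pass the test. The alpha chains *Lama1*, *Lama2* and *Lama5* had values of -0.41, -0.33 and -0.14 and did not pass it either.

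Of the 4 other basement membrane components, 3 were lower at an unadjusted p below 0.05 (12.2% of all genes tested were) and *Agrn* was not. *Hspg2* encodes perlecan, a large heparan sulphate proteoglycan of vessel basement membranes. It had 110.3, 128 and 227 CPM in WT mice and 43.2, 70.2 and 129 CPM in *Tet2*-KO mice, and only replicate 5 of the *Tet2*-KO mice reached the WT range. The means were 142 ± 44.3 CPM in WT and 78.8 ± 33.5 CPM in *Tet2*-KO mice, with a log2 fold change of -0.85 ± 0.29 (adjusted p = 0.146). *Nid1*, nidogen-1, which links laminin to type IV collagen, had 69.2, 82.8 and 139.6 CPM in WT mice and 18.1, 30.9 and 91.6 CPM in *Tet2*-KO mice. Again only replicate 5 lay inside the WT range, above 5 of the 6 WT mice. The means were 89.1 ± 25.8 CPM in WT and 44.2 ± 28.8 CPM in *Tet2*-KO mice, with a log2 fold change of -1.02 ± 0.39 (adjusted p = 0.164). *Nid2*, its paralog, had 16.5, 19.1 and 37 CPM in WT mice and 7.99, 10.8 and 19.9 CPM in *Tet2*-KO mice. Replicates 4 and 5 lay inside the WT range, and WT replicate 2 lay far above the other WT mice. The means were 21.6 ± 7.67 CPM in WT and 12.7 ± 5.03 CPM in *Tet2*-KO mice, with a log2 fold change of -0.76 ± 0.28 (adjusted p = 0.154, and 0.0463 by DESeq2). *Agrn* encodes agrin, a heparan sulphate proteoglycan of vessel and synaptic basement membranes, and had the highest level per length of the 4, 25.7 CPM per kb. It had 225, 239.9 and 252 CPM in WT mice and 228, 241 and 249.9 CPM in *Tet2*-KO mice. The groups covered nearly the same range. The means were 239 ± 8.94 CPM in WT and 238 ± 8.23 CPM in *Tet2*-KO mice, and the log2 fold change was -0.0061 ± 0.043, with a 95% confidence interval from -0.098 to 0.086. Its sign turned under other settings.

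Elastic fibre and microfibril genes were lower at an unadjusted p below 0.05 in 10 of the 13 tested (12.2% of all genes tested were). The median log2 fold change of the 13 was -0.66. The 15 members of this group include *Emilin3* and *Mfap5*, which did not pass the filter. *Emilin2* (ENSMUSG00000024053, chr17:71252172-71311978) encodes an elastin microfibril interfacer. It had 8.9, 10.5 and 17 CPM in WT mice and 4.34, 6.0 and 8.8 CPM in *Tet2*-KO mice. The groups did not overlap, and the highest *Tet2*-KO value lay just under the lowest WT value. The means were 11.4 ± 2.95 CPM in WT and 6.5 ± 1.84 CPM in *Tet2*-KO mice, with a log2 fold change of -0.81 ± 0.19 (adjusted p = 0.11). *Emilin1*, its better known paralog in vessel walls, had 10.7, 12.4 and 20.9 CPM in WT mice and 2.29, 4.35 and 12.4 CPM in *Tet2*-KO mice. Only replicate 5 of the *Tet2*-KO mice lay in the WT range. The means were 14 ± 3.72 CPM in WT and 5.98 ± 3.87 CPM in *Tet2*-KO mice, with a log2 fold change of -1.24 ± 0.37 (adjusted p = 0.124), the largest difference of the group.

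The fibrillins, the core of microfibrils, were both lower. *Fbn1* had 46.9, 54.9 and 86.8 CPM in WT mice and 21.9, 26.5 and 56.1 CPM in *Tet2*-KO mice. Replicate 5 alone lay in the WT range. The means were 59.1 ± 14.4 CPM in WT and 32.8 ± 13.4 CPM in *Tet2*-KO mice, with a log2 fold change of -0.85 ± 0.25 (adjusted p = 0.124). *Fbn2*, the fibrillin of developing tissue, had the smallest p of all members. It had 11.3, 16.3 and 18.3 CPM in WT mice and 8.23, 9.06 and 14.1 CPM in *Tet2*-KO mice. *Tet2*-KO replicate 4 lay with the low mice here, and replicate 5 lay in the WT range. The means were 15.5 ± 2.45 CPM in WT and 9.86 ± 2.24 CPM in *Tet2*-KO mice, with a log2 fold change of -0.66 ± 0.14 (adjusted p = 0.11), and the value kept between -0.78 and -0.60 with each library left out.

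Fibulins and the related EFEMP proteins bridge microfibrils and elastin. *Efemp1*, or fibulin-3, had the highest level per length of the group, 11.4 CPM per kb. It had 24.1, 26.5 and 42.9 CPM in WT mice and 11.4, 16 and 24.9 CPM in *Tet2*-KO mice, and replicate 5 reached above only the lowest WT mouse. The means were 29.2 ± 7.04 CPM in WT and 17.1 ± 5.52 CPM in *Tet2*-KO mice, with a log2 fold change of -0.77 ± 0.21 (adjusted p = 0.121). *Efemp2*, or fibulin-4, had 15.5, 18.8 and 26 CPM in WT mice and 11.9, 14.1 and 18.2 CPM in *Tet2*-KO mice. Replicates 2, 4 and 5 lay in the WT range. The means were 19.4 ± 3.7 CPM in WT and 14.6 ± 2.74 CPM in *Tet2*-KO mice, with a log2 fold change of -0.41 ± 0.14 (adjusted p = 0.131). *Fbln1* had 35.5, 51.8 and 93.7 CPM in WT mice and 14.4, 19.6 and 43.3 CPM in *Tet2*-KO mice, with replicates 4 and 5 in the WT range. The means were 57.3 ± 22.3 CPM in WT and 25.9 ± 12.6 CPM in *Tet2*-KO mice, with a log2 fold change of -1.14 ± 0.35 (adjusted p = 0.126). *Fbln7* was a low gene with 4.16, 5.6 and 6.69 CPM in WT mice and 2.04, 2.53 and 5.73 CPM in *Tet2*-KO mice. Replicates 4 and 5 overlapped with the WT mice, and WT replicate 1 was the highest of its group. The means were 5.59 ± 0.957 CPM in WT and 3.2 ± 1.45 CPM in *Tet2*-KO mice, with a log2 fold change of -0.81 ± 0.23 (adjusted p = 0.118). *Fbln2* and *Fbln5* had log2 fold changes of -0.10 ± 0.13 and -0.26 ± 0.18 and did not pass the test.

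The microfibril-associated glycoproteins were low in the brain. *Mfap2* had 5.67, 6.96 and 9.01 CPM in WT mice and 4.15, 5.23 and 6.28 CPM in *Tet2*-KO mice, with replicates 4 and 5 in the WT range. The means were 7.04 ± 1.26 CPM in WT and 5.27 ± 0.831 CPM in *Tet2*-KO mice, with a log2 fold change of -0.42 ± 0.13 (adjusted p = 0.125). *Mfap4* had 3.38, 3.87 and 6.31 CPM in WT mice and 1.43, 2.54 and 4.55 CPM in *Tet2*-KO mice, again with replicates 4 and 5 inside the WT range. The means were 4.33 ± 1.13 CPM in WT and 2.83 ± 1.12 CPM in *Tet2*-KO mice, with a log2 fold change of -0.63 ± 0.24 (adjusted p = 0.155). *Eln*, elastin itself, had a log2 fold change of -0.52 ± 0.26 with a confidence interval from -1.09 to 0.04 and did not pass the test. *Emilin3* had between 2 and 4 counts in each WT library, and *Mfap5* between 5 and 9. On the log2(CPM + 0.1) scale their *Tet2*-KO means differed from the WT means by -0.47 and -0.63, which exact two-sided permutation tests did not separate (p = 0.171 and p = 0.123, n = 6 per group), and a difference was not detectable at this depth.

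The crosslinking enzymes were lower at an unadjusted p below 0.05 in 4 of 5 (12.2% of all genes tested were). The median log2 fold change of the 5 was -0.97. *Lox*, the founding lysyl oxidase and the one with the highest level per length of the 5 (3.70 CPM per kb), had 17.8, 25.1 and 40.7 CPM in WT mice and 1.36, 5.86 and 28 CPM in *Tet2*-KO mice. *Tet2*-KO replicate 5 lay above all WT mice but replicate 2, and the other 5 *Tet2*-KO mice lay below every WT mouse. The means were 25.9 ± 8.17 CPM in WT and 9.45 ± 9.68 CPM in *Tet2*-KO mice, with a log2 fold change of -1.49 ± 0.56 (adjusted p = 0.16), and of -2.16 without replicate 5. *Loxl1*, which acts on elastin, had 10.6, 12.5 and 19.4 CPM in WT mice and 3.04, 5.33 and 14.1 CPM in *Tet2*-KO mice. Replicate 5 alone lay in the WT range. The means were 13.4 ± 3.2 CPM in WT and 6.88 ± 4.02 CPM in *Tet2*-KO mice, with a log2 fold change of -0.97 ± 0.32 (adjusted p = 0.135). *Loxl2*, which crosslinks type IV collagen, had 7.3, 8.57 and 16.4 CPM in WT mice and 1.49, 2.17 and 9.65 CPM in *Tet2*-KO mice, with the same mouse in the WT range. The means were 9.67 ± 3.42 CPM in WT and 4.03 ± 3.38 CPM in *Tet2*-KO mice, with a log2 fold change of -1.28 ± 0.46 (adjusted p = 0.152). *Loxl3* had 9.59, 10.6 and 15.1 CPM in WT mice and 4.96, 7.39 and 10.7 CPM in *Tet2*-KO mice. Replicates 4 and 5 lay in the WT range. The means were 11.1 ± 2.06 CPM in WT and 7.96 ± 2.23 CPM in *Tet2*-KO mice, with a log2 fold change of -0.47 ± 0.17 (adjusted p = 0.146). *Loxl4* was near the floor of the test, between 1.28 and 2.37 CPM over all mice, with a log2 fold change of -0.10 ± 0.18.

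**Figure D3:**
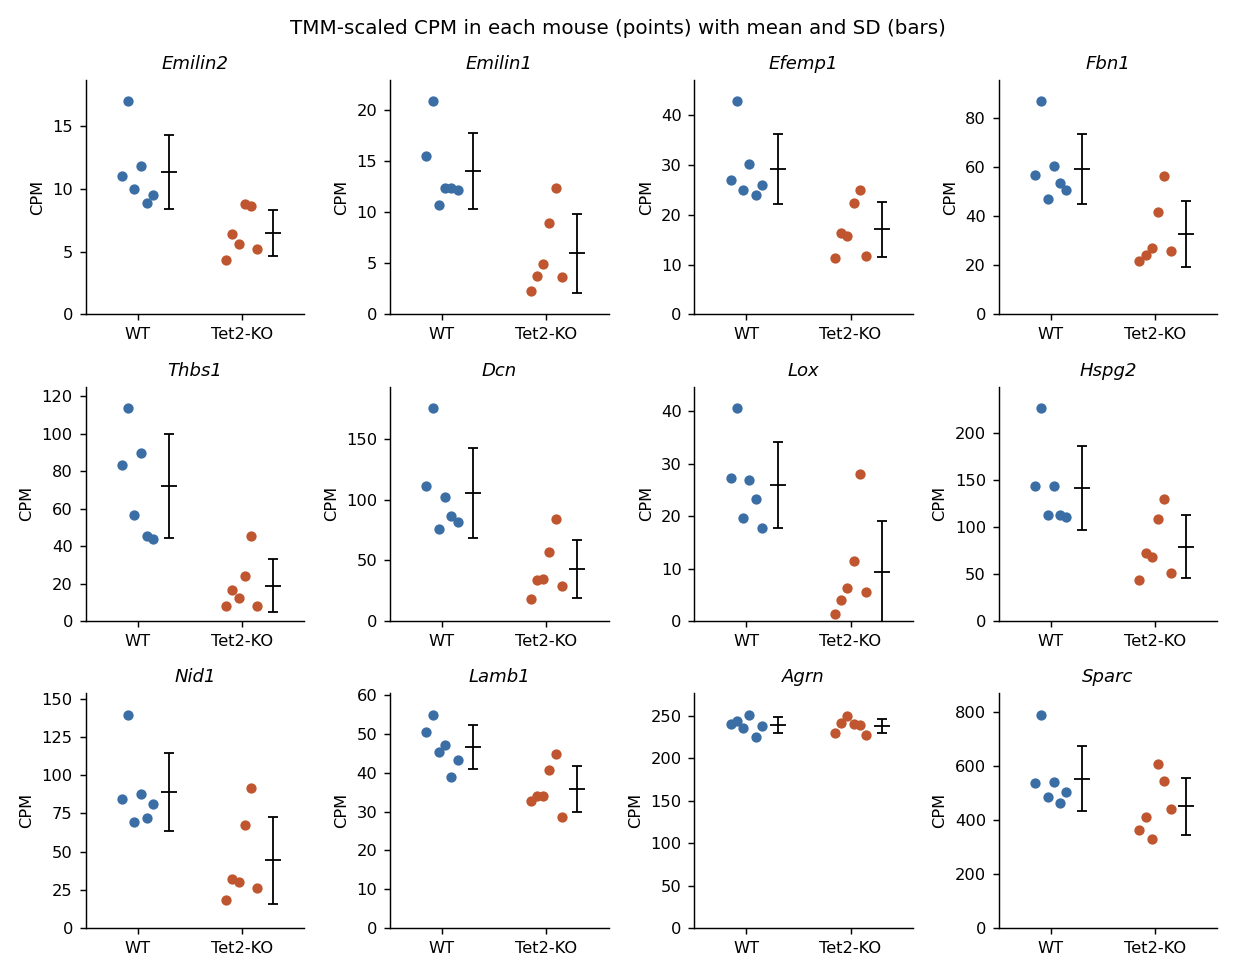
CPM (y axis, from 0) of 12 members from the different roles in each WT and *Tet2*-KO mouse (points), with the mean and SD of the group (bars, n = 6 per group). The groups are apart in *Emilin2*, 1 *Tet2*-KO mouse reaches the WT mice in *Emilin1*, *Efemp1*, *Fbn1*, *Thbs1*, *Dcn*, *Lox*, *Hspg2* and *Nid1*, and the points of *Agrn* cover the same range in both groups.

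Small leucine-rich proteoglycans were lower at an unadjusted p below 0.05 in 4 of 5 (12.2% of all genes tested were). They had the lowest median log2 fold change of the roles with several genes, -1.05. *Dcn*, decorin, which coats collagen fibrils and binds TGF-beta, had the highest level per length of the 5, 12.7 CPM per kb. It had 75.8, 94.2 and 175 CPM in WT mice and 18.3, 34.3 and 84.2 CPM in *Tet2*-KO mice. Replicate 5 alone reached the WT range, above 2 of the 6 WT mice. The means were 105 ± 36.8 CPM in WT and 42.9 ± 23.9 CPM in *Tet2*-KO mice, with a log2 fold change of -1.30 ± 0.36 (adjusted p = 0.121). *Lum*, lumican, its neighbour 47.0 kb away on chromosome 10 (*Dcn* at chr10:97479609-97518143, *Lum* at chr10:97565128-97572703), had 17.7, 22.4 and 36.9 CPM in WT mice and 1.36, 5.98 and 24 CPM in *Tet2*-KO mice. Replicate 5 lay above 5 of the 6 WT mice, and the others lay below all of them. The means were 23.5 ± 6.96 CPM in WT and 9.27 ± 8.19 CPM in *Tet2*-KO mice, with a log2 fold change of -1.36 ± 0.51 (adjusted p = 0.161). *Bgn*, biglycan, which can also signal through Toll-like receptors when released, had 77.6, 92 and 174 CPM in WT mice and 17.9, 36.9 and 109 CPM in *Tet2*-KO mice. The overlap was again through replicate 5 alone. The means were 103 ± 35 CPM in WT and 50.1 ± 32.7 CPM in *Tet2*-KO mice, with a log2 fold change of -1.05 ± 0.39 (adjusted p = 0.16). *Ogn*, osteoglycin, was lower by -0.69 ± 0.27 on the log2 scale (adjusted p = 0.17), and *Fmod*, fibromodulin, had a value of -0.41 ± 0.24 and did not pass the test.

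Matricellular proteins act on cells more than they build fibres. At an unadjusted p below 0.05, 3 of the 6 were lower (12.2% of all genes tested were). *Thbs1* (ENSMUSG00000040152, chr2:118111876-118127133) encodes thrombospondin-1, an inhibitor of vessel growth and an activator of latent TGF-beta that platelets and macrophages also release. It had 43.9, 69.8 and 114 CPM in WT mice and 8.0, 14.3 and 45.3 CPM in *Tet2*-KO mice. *Tet2*-KO replicate 5 lay above the lowest WT mouse alone, and the other 5 lay below all WT mice. The means were 72.1 ± 28 CPM in WT and 19 ± 14.2 CPM in *Tet2*-KO mice, with a log2 fold change of -1.94 ± 0.45 (adjusted p = 0.11), 3.83-fold lower and the largest difference of all members. *Thbs2*, its close paralog, had 22.2, 27.3 and 45.3 CPM in WT mice and 7.25, 15.1 and 24.4 CPM in *Tet2*-KO mice, with replicates 4 and 5 above the lowest WT mouse. The means were 29.4 ± 8.17 CPM in WT and 16.2 ± 6.75 CPM in *Tet2*-KO mice, with a log2 fold change of -0.86 ± 0.28 (adjusted p = 0.135). *Thbs3* and *Thbs4*, the thrombospondins that form pentamers, had values of -0.18 ± 0.10 and -0.028 ± 0.16 and did not pass the test. *Postn*, periostin, a product of activated fibroblasts, was lower by -0.98 ± 0.43 (adjusted p = 0.20). In *Tet2*-KO replicate 5 it lay above every WT mouse, and in the other 5 below all of them. *Sparc*, which binds collagen and is abundant in brain vessels and glia, had by far the highest level per length of all members, 132 CPM per kb. It had 464, 519.7 and 789.7 CPM in WT mice and 331, 426 and 608 CPM in *Tet2*-KO mice. Replicates 4 and 5 lay above most WT mice. The means were 553 ± 119.7 CPM in WT and 449.7 ± 107 CPM in *Tet2*-KO mice. The log2 fold change of -0.30 ± 0.17 did not pass the test (unadjusted p = 0.0987, adjusted p = 0.302) and was -0.17 without WT replicate 2. *Sparc* alone made up 25% of the summed CPM of all members over the 12 mice.

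*Vtn*, vitronectin, an adhesion glycoprotein of plasma that brain pericytes also express, had 53.5, 60.9 and 80.1 CPM in WT mice and 43.5, 54.4 and 65.2 CPM in *Tet2*-KO mice, at 28.7 CPM per kb. The ranges overlapped in 3 of the 6 *Tet2*-KO mice. The means were 61.9 ± 9.77 CPM in WT and 54.5 ± 8.86 CPM in *Tet2*-KO mice. The log2 fold change of -0.18 ± 0.12 did not pass the test (unadjusted p = 0.146, adjusted p = 0.376).

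Summed over all members, the matrix genes came to between 1998 and 3301 CPM in WT mice (median 2214) and between 1223 and 2277 CPM in *Tet2*-KO mice (median 1482). *Tet2*-KO replicates 4 and 5 lay in the WT range and the other 4 below it. The *Tet2*-KO median was 63.0% of the WT mean for all members, 76.3% for laminin chains, 51.5% for elastic fibre and microfibril components, 40.7% for small leucine-rich proteoglycans and 34.7% for crosslinking enzymes. The WT medians themselves were 94.1%, 96.6%, 94.1%, 91.3% and 94.2% of the WT mean in the same order. Set mean against mean, the ratios of *Tet2*-KO to WT were smaller differences, at 0.71, 0.80, 0.60, 0.50 and 0.49. These sums are descriptions, and a sum follows its most abundant genes.

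**Figure D4:**
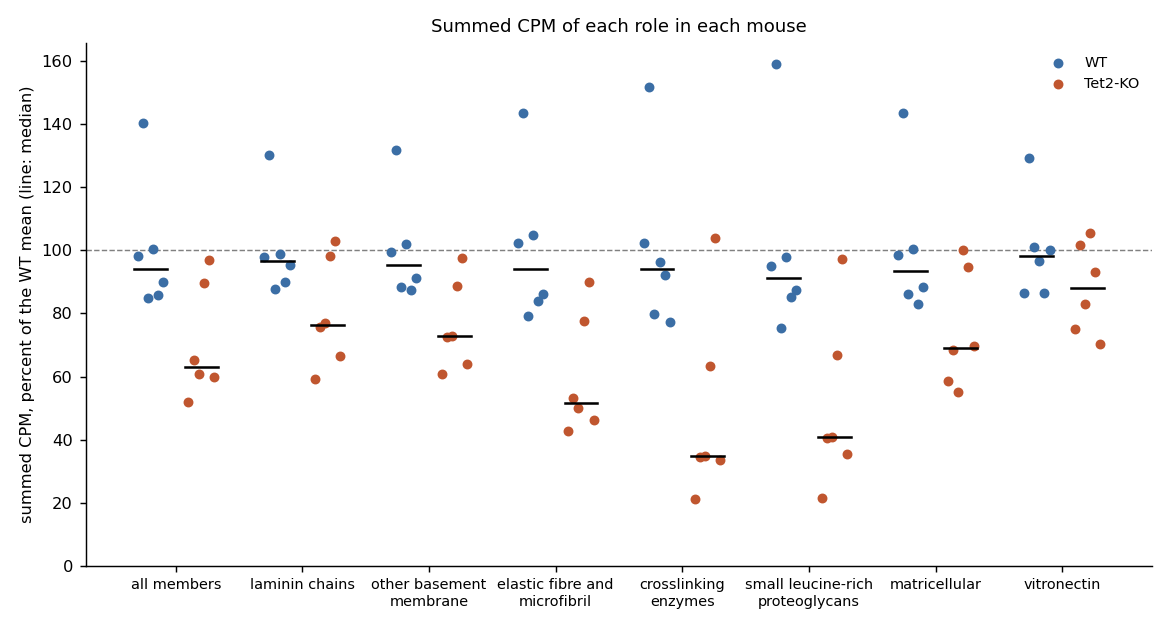
Summed CPM of each role in each mouse, as a percent of the WT mean (y axis, from 0), for WT (blue) and *Tet2*-KO (orange) mice, with lines at the medians. The *Tet2*-KO medians lie at 34.7% for crosslinking enzymes, 40.7% for small leucine-rich proteoglycans and 88.0% for vitronectin, and 1 or 2 *Tet2*-KO mice lie among the WT mice in most roles. The WT medians of these 3 roles lie at 94.2%, 91.3% and 98.3%.

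Partners of these genes were counted from lists of further genes. Of 18 collagen genes, 16 were lower at an unadjusted p below 0.05, with a median log2 fold change of -0.70. For this and the other lists here, 12.2% of all genes tested were lower at that threshold and 10.8% were higher. *Col8a1*, a collagen of vessel walls, had a value of -0.73, *Col12a1*, a fibril-associated collagen, -0.83, and *Col4a1*, a chain of the basement membrane network, -0.68, whereas *Col4a3* (0.05) and *Col4a4* (-0.15) did not pass. Of 27 matrix receptors, 13 were lower and none was higher, with a median of -0.28. *Cd36*, a scavenger receptor that binds thrombospondin-1, had the largest difference, -1.73 (adjusted p = 0.0752), followed by p by the proteoglycan *Sdc1*, -1.02, and the laminin-binding integrin *Itga6*, -0.63. Of 18 processing enzymes and chaperones, 8 were lower and 1 was higher. The crosslinking transglutaminase *Tgm2* had a value of -1.04, the procollagen peptidase *Adamts2* -0.42, the collagen chaperone *Serpinh1* -1.03, and *Pcolce2*, the higher one, 0.20. Of 13 genes that store, activate or answer to TGF-beta, 6 were lower, with *Ltbp1* at -0.38, *Tgfbi* at -1.57 and *Ltbp2* at -1.43. Of 20 tested matrix proteins outside the rule, 7 were lower, led by *Fn1*, fibronectin (-1.10), *Ecm1* (-0.74) and *Smoc2* (-0.41), and 4 were higher, among them the testicans *Spock1* (0.25), *Spock2* (0.17) and *Spock3* (0.11). None of the genes in the 5 lists passed the adjusted threshold in edgeR, which 0.0246% of all genes did. DESeq2 called 5 collagens, 6 receptors, 3 processing enzymes, 3 matrix proteins outside the rule and no TGF-beta gene. It called 4.25% of all genes. Without *Tet2*-KO replicate 5 the list medians were -0.83 for collagens, -0.33 for receptors, -0.40 for processing enzymes, -0.47 for TGF-beta genes and -0.27 for the other matrix proteins. Without WT replicate 2 they were -0.58, -0.22, -0.23, -0.26 and -0.13 in the same order.

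Markers of several cell types were lower along with the matrix genes, and their part in these results was not tested. Over all genes tested, 12.2% were lower at an unadjusted p below 0.05. Of 11 fibroblast markers 8 were lower, with *Twist1* at -0.98, *Slc6a13* at -0.52 and *Aldh1a2* at -0.79, and 3 of the 11 are collagens that are counted above as well. Their sum lay between 586 and 1262 CPM in WT mice and between 180 and 741 CPM in *Tet2*-KO mice, with replicate 5 the highest of the latter. Of 7 monocyte and macrophage markers 6 were lower (*Plac8* -1.91, *Mrc1* -0.95, *Ms4a7* -1.62), and *Cd163* (0.041) did not pass the test. The sum of all 7 lay between 377 and 988 CPM in WT mice and between 34.5 and 497 CPM in *Tet2*-KO mice. Of 7 markers of activated phagocytes 5 were lower (*Lgals3* -1.95, *Lpl* -1.24, *Itgax* -1.24), with a sum between 893 and 2153 CPM in WT mice and between 77.8 and 1331 CPM in *Tet2*-KO mice. Of 8 markers of reactive astrocytes 5 were lower (*Timp1* -0.96, *Steap4* -2.09, *Osmr* -0.86), with sums of 1240 to 3239 CPM and 505 to 2192 CPM. *Gfap* (-0.34), *Vim* (-0.73) and *Serpina3n* (-0.55) did not pass the test. *Gfap* was the most abundant of the 8, with means of 1058 ± 438 CPM in WT and 834 ± 376 CPM in *Tet2*-KO mice.

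Vessel wall, choroid plexus and nervous tissue were followed by further lists. Of 12 endothelial markers 5 were lower (*Emcn* -0.43, *Cldn5* -0.45, *Kdr* -0.39) and their sum lay between 390 and 478 CPM in WT mice and between 343 and 428 CPM in *Tet2*-KO mice. Of 10 mural cell markers 1 was lower, *Pdgfrb* (-0.58), a count near the share over all genes. Their sums were 333 to 440 CPM in WT mice and 253 to 385 CPM in *Tet2*-KO mice. Of 8 choroid plexus markers 3 were lower (*Aqp1* -0.53, *Kl* -0.28, *Kcne2* -0.34), with sums of 514 to 681 CPM and 416 to 713 CPM. Of 7 neuron markers 6 were higher (*Rbfox3* 0.31, *Syt1* 0.28, *Map2* 0.21), where 10.8% of all genes tested were higher at an unadjusted p below 0.05. Among 6 astrocyte markers *Slc1a2* was higher (0.13), but 4 of the 6 lay below zero, with a list median of -0.094. No marker of 7 for homeostatic microglia or of 5 for oligodendrocytes passed an unadjusted p of 0.05. Every marker in these lists was detected. No marker passed the adjusted threshold in edgeR, which 0.0246% of all genes did. DESeq2, which called 4.25% of all genes, called 4 fibroblast markers (*Twist1*, *Slc6a13*, *Aldh1a2* and *Foxc1*) and 2 endothelial markers (*Emcn* and *Cldn5*). It also called 1 each of mural cells (*Pdgfrb*), reactive astrocytes (*Timp1*) and choroid plexus (*Aqp1*). The median log2 fold change of the fibroblast markers was -0.73, and it became -0.91 when *Tet2*-KO replicate 5 was left out and -0.62 when WT replicate 2 was. For monocytes and macrophages these medians were -1.78, -2.46 and -1.52, for activated phagocytes -1.24, -1.85 and -1.10, and for reactive astrocytes -0.91, -0.99 and -0.65. They were -0.18, -0.24 and -0.13 for endothelial cells, -0.10, -0.14 and -0.053 for mural cells, and 0.25, 0.29 and 0.18 for neurons.

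**Figure D5:**
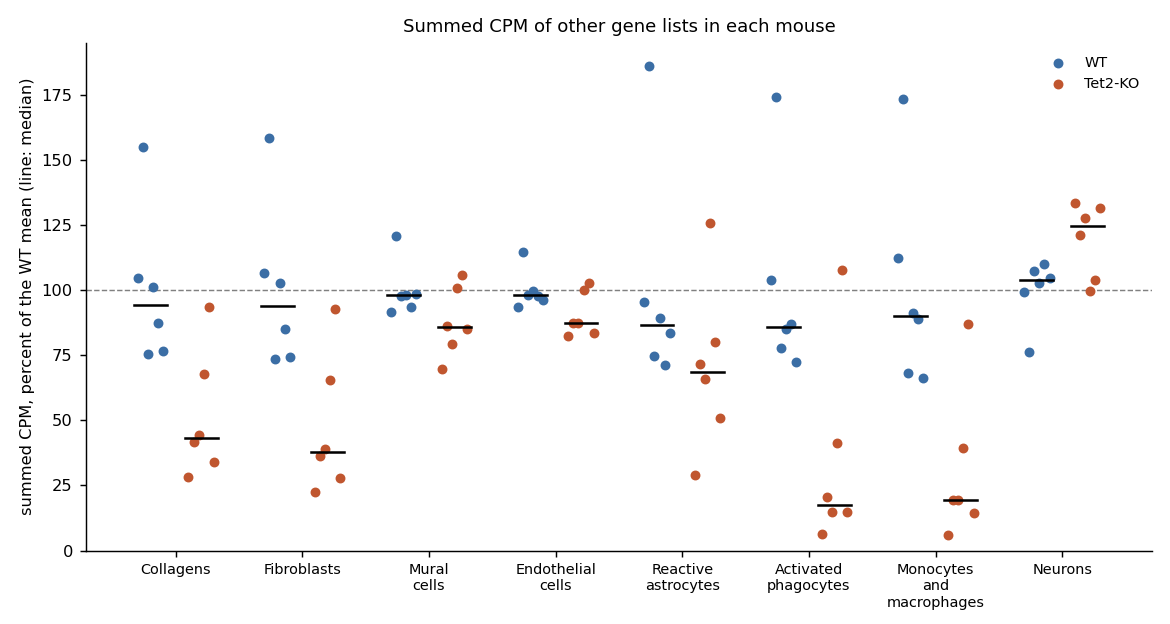
Summed CPM of other gene lists in each mouse, as a percent of the WT mean (y axis, from 0), for WT (blue) and *Tet2*-KO (orange) mice, with lines at the medians. The *Tet2*-KO median is 37.7% for fibroblast markers, 17.6% for activated phagocytes, 19.3% for monocytes and macrophages, 85.6% for mural cells, 87.5% for endothelial cells and 124% for neurons. The WT medians lie at 93.8%, 85.9%, 90%, 98%, 97.9% and 104% in the same order.

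Some counts may be affected by an overlapping gene. The strand used in counting is not given in the sources used here, and the exons of 15 members overlap those of a gene on the opposite strand. The overlap was 2442 of 12128 exonic bases in *Fbn1* (with *Gm9913*), 535 of 4603 in *Loxl3* (with *Htra2*), 437 of 5174 in *Nid2* (with *Rtraf*), 318 of 4823 in *Thbs3* (with *Mtx1*) and 173 of 3788 in *Efemp2* (with *Mus81*).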

How the data were processed

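Ribosomal RNA was depleted from total RNA and libraries were sequenced as paired reads on 1 lane. Per the submitters' processing notes, reads were trimmed with Trimmomatic 0.36, aligned to mm10 with STAR 2.5.2b and counted per gene with featureCounts of Subread 1.5.2. The authors deposited the resulting read counts per gene without normalization, as whole numbers. The table has 49315 genes, of which 48970 matched a symbol in GENCODE M21, and 11630 had no count in any library. Exon lengths and coordinates came from GENCODE M21 (GRCm38, the assembly of mm10). Promoter windows came from RefSeq on GRCm38.p6.

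The members and lists were chosen with earlier results of these data known. From the deposited counts, the groups were compared in R 4.3.3 by edgeR 4.0.16 and its quasi-likelihood F test (filterByExpr, TMM scaling, robust fit, all 12 libraries, no covariates), which kept 20290 genes. P-values were adjusted by Benjamini-Hochberg over all of these, with a threshold of 0.05. Each standard error was taken as the ratio of the log2 fold change to the root of its F statistic. Levels are TMM-scaled CPM, divided by the union exon length where given per kb. The 2 members outside the filter were tested with exact permutation tests on log2(CPM + 0.1) in scipy 1.17.1. Named genes were all members by role, with the 25 of smallest p below 0.05 and the highest level per length of each role in full. From each further list up to 3 genes in each direction were named, and some others beside them. Those rules left *Sparc*, *Vtn*, *Agrn* and *Lamc1* as additions that did not pass the test.

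Alternatives were the Wald test of DESeq2 1.42.0, limma-voom with sample quality weights (limma 3.58.1), scaling by DESeq2 size factors or by the upper quartile, no filter, at least 10 counts in every library, a block by replicate number and fits without each library in turn. All 3 tools were first tested on simulated data. Replicates are separate mice, and counts carry sampling error that the model includes. Correlations between deviations of same-numbered libraries lay between -0.17 and 0.23. They gave no sign that the numbers pair the mice, but such correlations cannot exclude a pairing, for example by cage. The tissue is 1 bulk sample per mouse, and no cell type was sorted. The single values of 1 member are not reported here. The immunostaining, qRT-PCR and behaviour of the study were not analysed here.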

Additional observations from a re-analysis of the deposited data

Results flagged for a closer look

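In 10 of 94 groups of 6 mice (47 members in both groups), the highest mouse stood apart from the other 5 by more than Dixon's 95% critical value for 6 samples, and chance flags about 1 in 20 groups. In all 10 that mouse was WT replicate 2, and the groups are not independent, since they share their mice. The genes were 3 laminin chains, *Lama2* at 85.9 CPM (next 65.2), *Lama5* at 55.2 CPM (next 42.2) and *Lamc1* at 136 CPM (next 101). They also included the basement membrane genes *Hspg2* at 227 CPM (next 143), *Nid1* at 139.6 CPM (next 87.9) and *Nid2* at 37.0 CPM (next 19.9). The others were *Loxl2* at 16.4 CPM (next 9.81), *Loxl3* at 15.1 CPM (next 10.8), *Bgn* at 174 CPM (next 95.7) and *Sparc* at 789.7 CPM (next 542). The same mouse had the highest WT sums of the fibroblast markers (1262 CPM), the activated phagocyte markers (2153 CPM) and the monocyte and macrophage markers (988 CPM), and their part in these values was not tested.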

How the results depend on the processing

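The count of members past the adjusted threshold depended on the tool and on *Tet2*-KO replicate 5. It was 0 in edgeR, 12 in DESeq2 (Wald test) and 26 in limma-voom, and the cause was not tested. With each library left out in turn it lay between 0 and 27, with 0 in 11 of the 12 fits and 27 without *Tet2*-KO replicate 5. The members lower at an unadjusted p below 0.05 numbered between 18 (WT replicate 2 left out) and 34 (*Tet2*-KO replicate 5 left out), and their median log2 fold change over all tested members lay between -0.71 and -0.41. The members without overlap between the groups numbered between 1 and 16, the latter without *Tet2*-KO replicate 5, where fewer mice have to lie apart and 4.78% of all genes do. *Agrn* changed sign, at 0.0078 with limma-voom, 0.027 with upper quartile scaling and between -0.023 and 0.0090 with each library left out. The replicate block gave 0 members past the adjusted threshold, 31 members lower and 1 member higher by unadjusted p (11.9% and 9.48% of all genes), and a median of -0.57, and changed no adjusted call. Only replicate 6 of the 6 numbers correlated best with its own number. Of 551 values of 29 named members under these alternatives, 488 kept their direction and side of the threshold, 58 passed it newly and 5, all of *Agrn*, reversed. DESeq2 size factors, upper quartile scaling and both other filters on low counts left 28 members lower and 1 higher. Depth limits *Emilin3* and *Mfap5*, whose differences of -0.47 and -0.63 became -0.089 and -0.19 with a pseudocount of 1 CPM.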
